A study of Mus musculus and Homo sapiens with 9 samples.

Results

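Peaks at divergent protein-coding promoters were described, that is, at places where a pair of protein-coding genes lay on opposite strands, were transcribed away from each other and had gene 5′ ends at most 1 kb apart. A peak was a member when its midpoint was within 1 kb of either 5′ end of such a pair. GENCODE M21 (mm10) held 754 such pairs and GENCODE 44 (hg38) held 887, and 1957 of the 102544 peaks in the 9 lists were members. The 17344 peaks at other protein-coding promoters served for comparison. The lists came from CUT&Tag, in which an antibody guides a transposase that tags the DNA beside its target. The S9.6 antibody, which binds DNA-RNA hybrids, was used in mouse embryonic fibroblasts (MEFs) that were Mcm8 wildtype (WT), Mcm8 knockout (KO), shControl or shDdx5 (Ddx5 knockdown by adenovirus). A further MEF library, labelled wildtype, had no primary antibody. The human embryonic kidney line HEK293, wildtype in all its labels, was profiled with mouse IgG, with anti-FLAG after transfection of a FLAG-MCM8 plasmid, with S9.6, and with S9.6 after transfection of a plasmid labelled RNH1, which the study gives as RNase H1. MEFs came from embryos of Mcm8+/- matings and were immortalised with an SV40 lentivirus under puromycin. The labels give the genotype of the shControl cells only as control. With 1 library per group, no p-value was computed, every interval covers counting error only, and a difference between libraries cannot be told apart from a difference between conditions. Peak lists hold no expression values, so neither the loss of Mcm8 or Ddx5 nor the cell type could be checked here.

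R-loops form when nascent RNA pairs with its DNA template and leaves the other strand single. They are known to form behind promoters, mostly at CpG islands with a G-rich RNA strand. Divergent gene pairs share one nucleosome-depleted region that holds a start site on each side, and many of them encode housekeeping proteins of mitochondria, DNA repair or RNA metabolism. MCM8 is a helicase of the minichromosome maintenance family, DDX5 is an RNA helicase that can unwind hybrids, and RNase H1 degrades the RNA of a hybrid.

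The following intervals show the DNA between both start sites for pairs with 5′ ends at most 300 bp apart. They belong to pairs named by a fixed list (the target genes Mcm8 and Ddx5, and replication, repair and metabolic genes) or to pairs with the strongest peaks across lists, and they had a peak in at least 2 S9.6 lists. Each was read on the plus strand, from the base after the 5′ end of the minus-strand gene to the base before that of the plus-strand gene, so that transcription leaves it at both ends. The mouse intervals (GRCm38, mm10) were Trmt6/Mcm8 at chr2:132816056-132816140, Ddx5/Cep95 at chr11:106789186-106789251, Cdca2/Kctd9 at chr14:67715842-67715936. The human intervals (hg38) were CAGE1/RIOK1 at chr6:7389743-7389792, TMEM53/ARMH1 at chr1:44674482-44674691, LIPT2/POLD3 at chr11:74493725-74493850, PPAT/PAICS at chr4:56435616-56435740, TK1/AFMID at chr17:78187234-78187357, SARS2/MRPS12 at chr19:38930764-38930943, UFD1/CDC45 at chr22:19479203-19479456 and DESI1/XRCC6 at chr22:41621044-41621162. Capitals mark, on either strand, matches to 4 motifs. The GC box was searched as GGGCGG. The CCAAT box was searched by the letters of its name. The ETS motif was searched as CCGGAAGT. The TATA box was searched as TATAAA.
Trmt6/Mcm8: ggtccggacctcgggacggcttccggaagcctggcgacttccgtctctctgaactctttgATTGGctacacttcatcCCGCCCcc
Ddx5/Cep95: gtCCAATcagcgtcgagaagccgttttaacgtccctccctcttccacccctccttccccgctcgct
Cdca2/Kctd9: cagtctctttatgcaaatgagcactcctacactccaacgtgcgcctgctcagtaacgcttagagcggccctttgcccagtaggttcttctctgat
CAGE1/RIOK1: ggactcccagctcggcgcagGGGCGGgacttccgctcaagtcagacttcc
TMEM53/ARMH1: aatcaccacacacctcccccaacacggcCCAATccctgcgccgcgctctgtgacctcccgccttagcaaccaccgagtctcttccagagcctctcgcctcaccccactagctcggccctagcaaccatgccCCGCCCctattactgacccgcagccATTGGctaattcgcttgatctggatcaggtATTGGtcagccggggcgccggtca
LIPT2/POLD3: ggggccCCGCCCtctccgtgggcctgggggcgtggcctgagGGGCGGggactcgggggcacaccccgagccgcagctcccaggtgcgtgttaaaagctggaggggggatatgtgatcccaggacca
PPAT/PAICS: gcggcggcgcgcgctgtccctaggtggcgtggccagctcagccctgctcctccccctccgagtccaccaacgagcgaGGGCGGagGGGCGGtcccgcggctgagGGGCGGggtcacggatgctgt
TK1/AFMID: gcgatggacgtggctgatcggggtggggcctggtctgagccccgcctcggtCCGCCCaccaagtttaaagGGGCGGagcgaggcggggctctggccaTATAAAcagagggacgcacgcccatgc
SARS2/MRPS12: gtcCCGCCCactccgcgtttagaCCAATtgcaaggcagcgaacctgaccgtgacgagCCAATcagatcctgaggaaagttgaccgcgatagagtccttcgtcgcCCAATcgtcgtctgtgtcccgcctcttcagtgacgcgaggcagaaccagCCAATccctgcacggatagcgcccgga
UFD1/CDC45: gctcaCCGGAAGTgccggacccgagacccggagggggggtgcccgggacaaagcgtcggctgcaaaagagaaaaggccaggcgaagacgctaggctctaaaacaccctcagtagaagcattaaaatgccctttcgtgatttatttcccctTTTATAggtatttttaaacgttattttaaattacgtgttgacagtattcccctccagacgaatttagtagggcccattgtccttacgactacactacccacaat
DESI1/XRCC6: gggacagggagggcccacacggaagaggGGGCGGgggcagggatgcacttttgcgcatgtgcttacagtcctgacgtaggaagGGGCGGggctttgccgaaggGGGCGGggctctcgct
The interval of Cdca2/Kctd9 held none of the 7 motifs searched, and that of SARS2/MRPS12 held 4 CCAAT boxes. GC boxes were in 45.5% of all mouse and 54.3% of all human 300 bp promoter windows, CCAAT in 36.6% and 33.8%, the ETS motif in 4.86% and 5.14%, and the TATA box in 10.6% and 9.17%. A match describes the letters and is not a measured site.

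The mouse pairs held 1487 genes (6.78% of 21938) and the human pairs 1710 genes (8.54% of 20033). Of these, 21 mouse and 63 human genes were in 2 or more pairs, so 1 peak could count for more than 1 pair. Intervals over pairs treat such pairs as separate. The distance between the 5′ ends had a median of 129.5 bp in mouse and 132 bp in human, and 618 mouse and 717 human pairs were at most 300 bp apart. The lists held 4314 to 12259 peaks in MEFs and 12497 to 17178 in HEK293. MEF peaks had a p of up to 0.000997 and HEK293 peaks of up to 1.00e-05, so MEF lists were not compared with HEK293 lists. The least supported peak had a pileup of 6 or 7 fragments in the S9.6 MEF lists, 3 without antibody and 10 to 14 in HEK293, as solved from fold and p. Members numbered 185 in WT, 274 in KO, 216 in shControl, 360 in shDdx5, 11 without antibody, 415 in S9.6, 334 in RNH1, 135 in FLAG-MCM8 and 27 in IgG. They made up 2.85% of all peaks in WT and in KO, 1.76% in shControl, 3.06% in shDdx5, 2.74% in S9.6, 2.67% in RNH1 and 1.02% in FLAG-MCM8, against 0.255% without antibody and 0.157% in IgG. Of the peaks at any protein-coding promoter, members were 9.42% to 10.7% in the S9.6 and FLAG-MCM8 lists, 7.1% (4.01 to 12.3) without antibody and 7.09% (4.92 to 10.1) in IgG.

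Divergent pairs held a peak more often than other protein-coding genes in every list. In WT, 187 of 754 pairs (24.8%) had a peak, against 8.11% of 20451 other genes, a difference of 16.7 percentage points (95% interval 13.7 to 19.9). In KO the shares were 36.7% and 11.9% (difference 24.9, 21.5 to 28.4), in shControl 28.8% and 10.5% (difference 18.2), and in shDdx5 48.1% and 17.8% (difference 30.3, 26.7 to 33.9). In HEK293, S9.6 peaks were at 48.6% of 887 pairs and at 21% of 18323 other genes (difference 27.6). The RNH1 list gave 38.8% and 16.6% (difference 22.2) and FLAG-MCM8 15.7% and 6.85% (difference 8.82, 6.54 to 11.4). Both control lists differed in the same direction, by fewer percentage points at lower shares, with 1.46% against 0.719% without antibody (difference 0.740, 0.0856 to 1.88) and 3.16% against 2.0% in IgG (difference 1.16, 0.172 to 2.54). As a ratio, pairs held a peak 2.03 times as often as other genes without antibody. In the S9.6 MEF lists it was 2.70 (shDdx5) to 3.10 (KO) times. In HEK293 it was 1.58 times in IgG, against 2.29 (FLAG-MCM8) to 2.33 (RNH1) times in the other lists. The ratio without antibody rested on 11 pairs with a peak (1.46%, 0.817 to 2.59) and that of IgG on 28. No interval of these ratios was computed. The window of a pair is wider than that of a single gene. With each gene of a pair counted alone, the WT difference was 16.4 and the S9.6 difference 27.7 points.

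**Figure D1:**
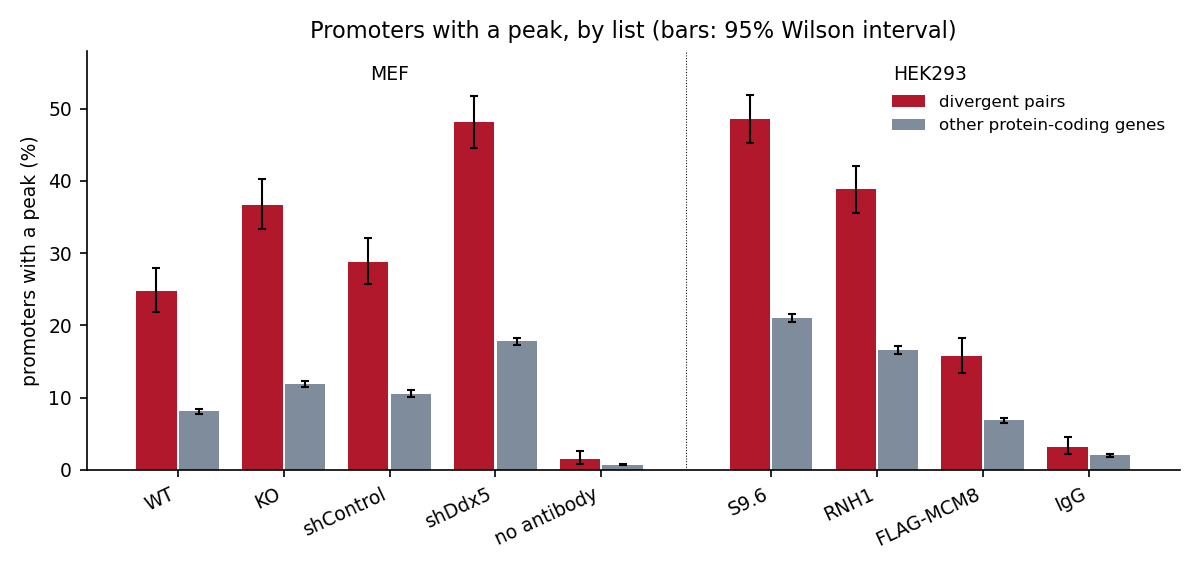
Share of promoters with a peak (%, vertical axis) in each of the 9 lists, for divergent pairs (red) and other protein-coding genes (grey), with 95% Wilson intervals as error bars. Red exceeds grey in every list, from 48.6% against 21% in S9.6 down to 1.46% against 0.719% without antibody.

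The CpG content of divergent promoters differed from that of the rest, so occupancy was compared at like CpG content. A CpG observed/expected ratio of at least 0.6 over 1 kb was found in 84.7% of mouse pairs and 43.2% of other mouse genes, and in 91.5% and 57.2% in human. All protein-coding promoters of a species were put into 4 bins of CpG ratio, each with 25% of them. Within bin 4, the highest, WT peaks were at 26.8% of pairs and 16.8% of other genes (difference 9.99, 5.69 to 14.7). There the difference was 15.6 points in KO, 10.1 in shControl, 16.0 in shDdx5, 21 in S9.6, 17.1 in RNH1 and 7.85 in FLAG-MCM8, and each interval excluded 0. In bins 2 and 3 the intervals of these 7 lists also excluded 0. In the controls the difference in bin 4 was 0.0363 (-0.784 to 1.75) without antibody and 2.04 (0.447 to 4.65) in IgG. Bin 1 held only 16 mouse and 20 human pairs, and 0 of the 16 had a peak in any MEF list, against 0.807% of other genes in WT. The WT difference was 16.7 points over all promoters and 9.99 in bin 4.

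**Figure D2:**
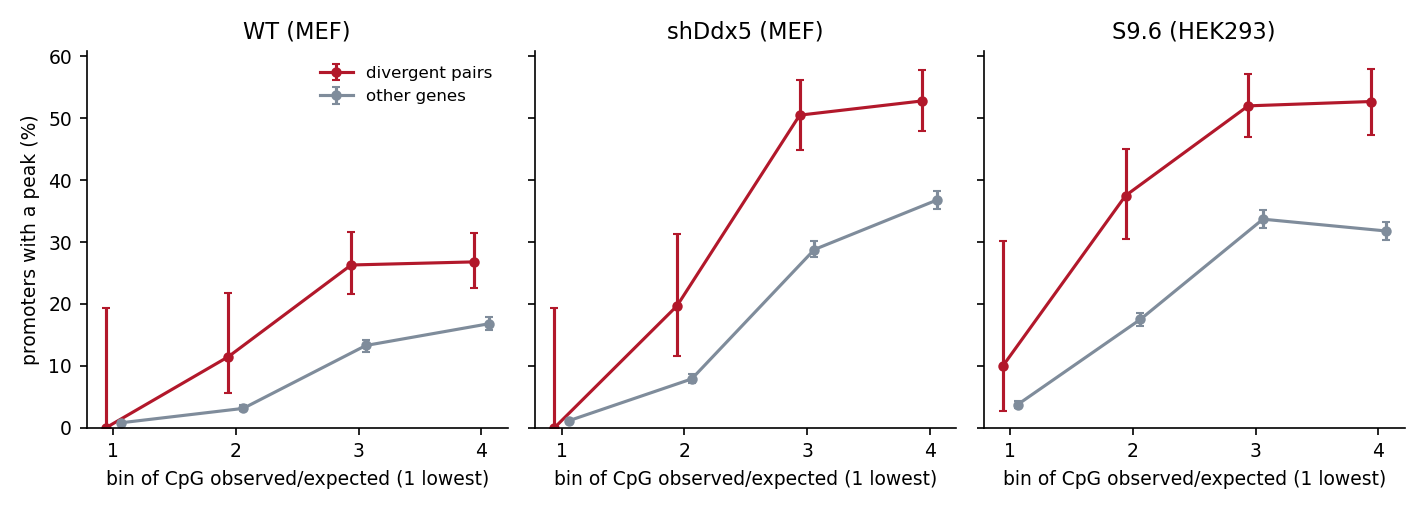
Promoters with a peak (%, vertical axis) by bin of CpG observed/expected ratio (horizontal axis, each with 25% of promoters, 1 lowest) in WT, shDdx5 and HEK293 S9.6, for divergent pairs (red) and other genes (grey), with 95% Wilson intervals. Red lies above grey in bins 2 to 4 of all 3 lists, for example 52.7% against 31.8% in bin 4 of S9.6.

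Among the pairs, those with the closest 5′ ends held a peak least often in every list except that without antibody. In WT the share was 18.3% (14.4 to 22.9) at distances up to 100 bp, 27.9% above 100 and up to 250 bp, 33.6% (25.5 to 42.9) above 250 and up to 500 bp and 28.6% above 500 and up to 1000 bp. The shDdx5 list gave 37.2%, 55.7%, 59.1% and 51.4% for these distances. HEK293 S9.6 gave 40.6%, 52.2%, 60.7% and 46.1%, and FLAG-MCM8 10.5%, 15.7%, 24.1% and 22.4%. Intervals of the closest and the farthest pairs overlapped in every S9.6 list, for example in WT (14.4 to 22.9 and 19.3 to 40.1). In HEK293 S9.6 they were 35.6 to 45.9 and 35.3 to 57.2. They did not overlap in FLAG-MCM8 (7.70 to 14.2 and 14.5 to 32.9). Among the controls, IgG gave 1.75%, 3.70%, 4.14% and 5.26%, and the list without antibody 0.962%, 0.763%, 2.73% and 4.29%. In a window of fixed width around the middle of the pair the shares for WT were 18.3%, 27.5%, 33.6% and 28.6%, each within 1 point of the value above. The fixed window moved other lists more, from 46.1% to 43.4% for S9.6 above 500 bp, from 24.1% to 22.8% for FLAG-MCM8 above 250 and up to 500 bp, and from 35.7% to 34.3% for shControl above 500 bp. Pairs just inside the limit (above 750 and up to 1000 bp) and just outside it (above 1000 and up to 1500 bp) held a peak in 47.6% of 21 and 47.8% of 46 pairs in shDdx5, and in 42.1% of 38 and 56.1% of 41 pairs in S9.6, with overlapping intervals.

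Sequence at the pairs was then set beside the lists. The GC skew of the 500 bp downstream of a 5′ end, the excess of G over C relative to their sum on the coding strand, had a median of 0.0735 over the genes of mouse pairs and 0.0507 over other mouse genes, and of 0.0726 and 0.0444 in human. Both genes had a positive skew in 55.2% of mouse and 53.2% of human pairs. The median skew was 0.0914 over the 104 pairs with a peak in all 4 S9.6 MEF lists and 0.0616 over the 287 pairs with none. In human the same medians were 0.0740 (279 pairs in both S9.6 and RNH1) and 0.0760 (391 pairs in neither), so this order was not seen at human pairs. Other genes showed it in both species. Their medians with a peak in every S9.6 list and in none were 0.0669 and 0.0476 in mouse. In human they were 0.0563 and 0.0408. In the 300 bp around the middle of a pair or the 5′ end of another gene, the ETS motif CCGGAAGT was found at 12.9% of mouse pairs and 4.37% of other genes, and at 14.1% and 4.37% in human. The NRF1 core GCGCATGC was at 6.50% and 3.03% in mouse and 9.13% and 3.19% in human, the YY1 core AAGATGGC at 8.49% and 3.18% and at 5.98% and 3.38%, and the palindromic cyclic AMP element TGACGTCA at 4.38% and 2.2% and at 3.95% and 2.02%. The TATA box was rarer at pairs, with 4.38% against 11.2% in mouse and 5.19% against 9.62% in human. GC boxes were at 80.8% of the 104 mouse pairs with a peak in all 4 lists and at 58.9% of the 287 with none, CCAAT boxes at 54.8% and 40.1%, and the ETS motif at 5.77% and 14.6%. Of the 104 pairs 0 held a TATA box, against 6.97% of the 287, while in human 4.66% of pairs with both peaks and 6.39% of those with neither did. For human pairs with both or neither peak, the GC box shares were 77.4% and 65.2%, CCAAT 48.4% and 34.8%, and the ETS motif 13.3% in both, so the ETS order of the mouse pairs was absent. All motifs were searched on both strands. The sets also differed in base composition. A CpG ratio of at least 0.6 was found in 92.3% of the 104 mouse pairs and 73.9% of the 287, with a median GC of 62.5% and 58.1%. For human pairs with both or neither peak the values were 96.8% and 85.2%, and 62.6% and 61.0%. Motif shares were not compared at like composition.

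Summits clustered at the middle of a pair in the S9.6 lists. The summit lay within 250 bp of the middle for 64.9% of members in WT, 73.7% in KO, 61.1% in shControl, 62.8% in shDdx5, 66.7% in S9.6 and 61.4% in RNH1. The share of other promoter peaks with a summit within 250 bp of the 5′ end was 59.6% in WT, 59.6% in KO, 55.3% in shControl, 59.3% in shDdx5, 56.8% in S9.6 and 54.8% in RNH1. Between the 5′ ends themselves lay 34.6% (28.1 to 41.7) of summits in WT, 37.2% in KO, 27.3% in shControl, 28.1% in shDdx5, 30.1% in S9.6 and 26.6% in RNH1. The remainder fell on the genes, 29.2% over the minus-strand gene and 36.2% over the plus-strand gene in WT, and 34.9% over each in S9.6. FLAG-MCM8 summits were farther out, with 18.5% (12.9 to 25.9) between the 5′ ends. Within 100 bp of the middle lay 17.8% (12.2 to 25.1), against 34.7% (30.3 to 39.4) for S9.6. Above 100 and up to 300 bp, a wider zone, lay 45.9% (37.7 to 54.3), against 38.3% (33.8 to 43.1) for S9.6, with overlapping intervals. Of FLAG-MCM8 members 55.6% had a summit within 250 bp of the middle. At other promoters 42.8% of FLAG-MCM8 summits were within 250 bp of the 5′ end, against 56.8% for S9.6. FLAG-MCM8 summits were thus farther out at other promoters too. The 100 bp and 300 bp limits were chosen after the profile was seen. In IgG 0 of 27 summits lay within 100 bp of the middle (upper bound 12.5%). Between the 5′ ends lay 7.41% (2.06 to 23.4) of IgG summits, an interval that overlaps that of FLAG-MCM8. Within 250 bp lay 29.6% of IgG summits at pairs and 27.1% at other promoters, fewer than for FLAG-MCM8. A single peak covered both 5′ ends for 37.8% of members in WT, 42.0% in KO, 31.0% in shControl, 46.7% in shDdx5, 45.1% in S9.6, 36.5% in RNH1, 18.5% in FLAG-MCM8, 11.1% in IgG and for 0 of 11 without antibody (upper bound 25.9%). More than 1 peak was found at 0.535% (WT) to 5.04% (FLAG-MCM8) of the pairs that had any.

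**Figure D3:**
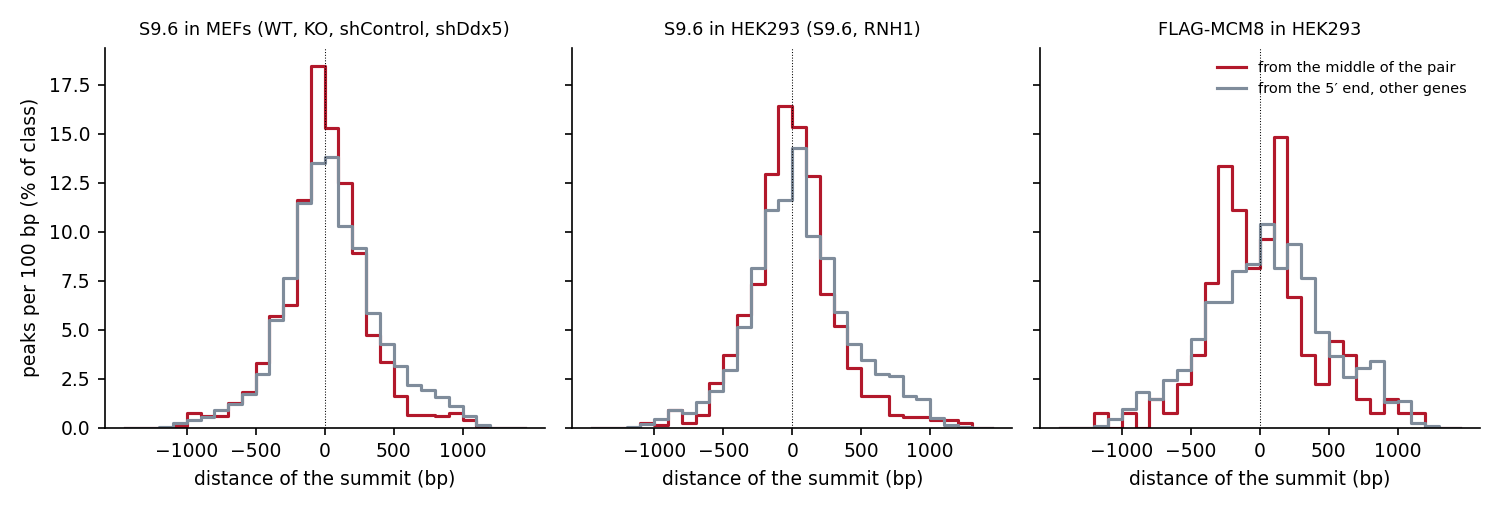
Distance of peak summits (bp, horizontal axis) from the middle of the divergent pair (red) or from the 5′ end of another protein-coding gene (grey, positive values downstream), as % of the class per 100 bp (vertical axis), pooled over 4 S9.6 MEF lists, over S9.6 and RNH1 in HEK293, and for FLAG-MCM8. S9.6 summits peak at the middle of the pair. Of the 135 FLAG-MCM8 summits, 17.8% lie within 100 bp of it and 45.9% above 100 and up to 300 bp, a wider zone. A mode on each side was not tested.

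Members ranked higher and were wider than other promoter peaks in each of the S9.6 lists. Their median width was 439 bp against 380 bp in WT, 433 against 376 bp in KO, 399 against 339 bp in shControl, 544 against 452 bp in shDdx5, 489 against 412 bp in S9.6 and 446 against 406 bp in RNH1. In FLAG-MCM8 it was 340 against 331 bp. Among the controls the 11 members without antibody were narrower (287 against 377 bp) and the 27 in IgG wider (411 against 384 bp). Ranked by p over the whole list, the median member stood at the 76.8th percentile in WT, 81.2 in KO, 85.2 in shControl, 80.5 in shDdx5, 79.6 in S9.6, 76.3 in RNH1 and 68.0 in FLAG-MCM8, against 72.1, 72.7, 74.6, 72.3, 71.8, 69.4 and 65.2 for other promoter peaks. Control members also ranked higher, at 69.2 against 50.2 without antibody and 59.4 against 54.3 in IgG. Median folds over the local background were close, 3.98 against 3.82 in WT and 5.19 against 4.85 in S9.6. Members with a q of at most 0.05 were 67.0% for WT, 69.3% for KO, 63.9% for shControl and 89.2% for shDdx5, against 56.5%, 62.0%, 54.2% and 80.0% of other promoter peaks.

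Peaks at divergent promoters were found again in a partner list more often than those at other promoters. Of the KO members, 138 of 274 (50.4%) overlapped a WT peak, against 37.2% at other promoters (difference 13.2, 6.97 to 19.4) and 16.5% of all KO peaks. Conversely 75.1% of WT members overlapped a KO peak (54.6% at other promoters, 24.5% of all). Of shDdx5 members 45.8% overlapped a shControl peak (36.0%, all 20.2%), and of shControl members 76.9% a shDdx5 peak (61.6%, all 19.4%). In HEK293, 74.1% of FLAG-MCM8 members overlapped an S9.6 peak (53.1% at other promoters, all 13.5%), and 23.4% of S9.6 members a FLAG-MCM8 peak (17.1%, all 11.8%). S9.6 members overlapped an RNH1 peak in 62.2% (52.2%, all 28.9%) and RNH1 members an S9.6 peak in 77.8% (66.1%, all 35.1%). Each of these 8 differences from other promoters had an interval above 0. Members were also stronger, and within the strongest 25% of each list, a comparison chosen after the data were seen, the difference was 4.0 points (-4.35 to 12) for KO with WT, 2.11 (-4.15 to 7.69) for S9.6 with RNH1, 2.88 (-3.04 to 7.34) for RNH1 with S9.6 and 5.90 (-0.0906 to 12.4) for S9.6 with FLAG-MCM8. For the other 4 the interval stayed above 0 in this comparison, with 20.3 points (9.51 to 27.1) for FLAG-MCM8 with S9.6. Other settings ended 2 of these 4 calls. FLAG-MCM8 with S9.6 fell to 7.39 points (-0.697 to 16.2) when at least 50% of both peaks had to overlap, and WT with KO fell to 8.33 (-2.69 to 18.4) at a fold of at least 4.

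**Figure D4:**
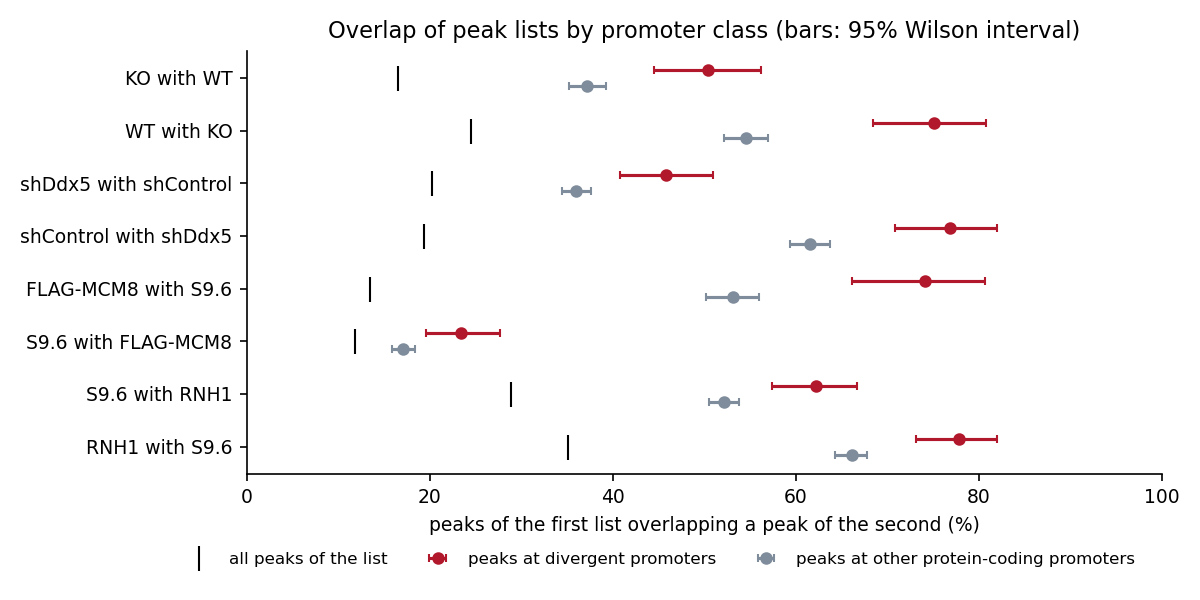
Share of peaks of the first list that overlap a peak of the second by at least 1 bp (%, horizontal axis) for peaks at divergent promoters (red), at other protein-coding promoters (grey) and over the whole list (black tick), with 95% Wilson intervals. Red lies to the right of grey in all 8 comparisons, for example 75.1% against 54.6% for WT with KO.

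Few members lay at control peaks. A no-antibody peak was overlapped by 5 of 185 members in WT (2.70%, all 1.23%), 4 of 274 in KO (1.46%, all 1.15%), 3 of 216 in shControl (1.39%, all 0.832%) and 5 of 360 in shDdx5 (1.39%, all 1.06%). An IgG peak was overlapped by 5.19% of members in FLAG-MCM8 (all 5.01%), 4.34% in S9.6 (all 5.49%) and 4.49% in RNH1 (all 6.63%). None of these 7 shares differed from other promoters beyond its interval.

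The comparison of libraries asked whether loss of Mcm8 or Ddx5, or RNase H1, went with a different number of peaks at divergent promoters. KO held 1.48 times as many members as WT (1.23 to 1.78), and other promoters 1.47 times as many peaks, so the ratio of ratios was 1.01 (0.829 to 1.23). All KO peaks together also numbered 1.48 times those of WT. shDdx5 held 1.67 times as many members as shControl and 1.71 times as many other promoter peaks (ratio of ratios 0.976, 0.817 to 1.17), whereas all its peaks together numbered 0.960 times those of shControl. RNH1 held 0.805 times the members of S9.6 and 0.787 times the other promoter peaks (1.02, 0.878 to 1.19), with 0.825 times the peaks over the whole list. No difference between divergent and other promoters was detectable in these 3 comparisons. FLAG-MCM8 held 5.00 times the members of IgG (3.31 to 7.56) and 3.25 times the other promoter peaks (1.54, 0.999 to 2.36). Over the whole list it held 0.774 times the peaks of IgG. At a q of 0.05, at a fold of at least 4 and with equal numbers of the strongest peaks, the ratio of ratios was 0.952, 1.03 and 1.06 for KO and WT and 0.922, 0.936 and 0.977 for shDdx5 and shControl, and every interval held 1. The part of sequencing depth in these numbers was not tested.

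By pair, 145 pairs had a peak in WT and KO (19.2%, against 4.69% of other genes), 132 in KO and not WT (17.5% against 7.17%), and 42 in WT and not KO (5.57% against 3.42%). For the knockdown, 171 pairs had a peak in shControl and shDdx5 (22.7% against 7.01%), 192 in shDdx5 and not shControl (25.5% against 10.8%), and 46 in shControl and not shDdx5 (6.10% against 3.53%). These shares are of all pairs or all other genes, with or without a peak. Of the 277 pairs with a KO peak, 132 had none in WT, a smaller share than 1467 of 2426 other genes. Of the 363 pairs with a shDdx5 peak, 192 had none in shControl, a smaller share than 2210 of 3644 other genes. A peak in KO but not WT and also in shDdx5 but not shControl was found at 48 pairs (6.37%, against 2.26% of other genes). These were 48 of the 132 pairs with a peak in KO and not WT, beside 462 of the 1467 such other genes. No interval was computed for the latter shares. All 4 S9.6 MEF lists had a peak at 104 pairs (13.8%, against 2.89% of other genes), and 287 pairs (38.1%) had none in any. In HEK293, 279 pairs had a peak in S9.6 and RNH1 (31.5% against 11.7%), 152 in S9.6 and not RNH1 (17.1% against 9.30%), and 65 in RNH1 and not S9.6 (7.33% against 4.96%). Of the 139 pairs with a FLAG-MCM8 peak, 112 had an S9.6 peak (12.6% of pairs, against 4.20% of other genes) and 27 had none (3.04% against 2.66%).

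Named pairs showed which promoters carried these peaks. Values are the authors' fold at the summit with the −log10 q, which depend on the library and are not compared between lists. Cdca2/Kctd9 (chromosome 14; Cdca2 recruits protein phosphatase 1 to chromosomes) had a fold of 6.54 in WT (−log10 q 13.3), 6.17 in KO (11.9), 5.32 in shControl (6.56) and 7.56 in shDdx5 (22.9), and no peak without antibody. Gamt/Dazap1 (chromosome 10; creatine synthesis and an RNA-binding protein) had 5.39, 5.38, 5.21 and 6.38 in the same order, with a −log10 q of 25 in shDdx5, the highest of any member of that list. These 2 pairs, Srgap2/Fam72a (4.62, 7.17, 6.56 and 6.28) and Aldh6a1/Lin52 (5.67, 6.56, 6.53 and 6.40; Lin52 belongs to the DREAM cell cycle repressor) ranked highest over the 4 lists among pairs with no peak without antibody. Mob3a/Izumo4 had the highest −log10 q of WT (13.5) and KO (15.4), with 10.1 in shControl and 18.5 in shDdx5, but it also had a no-antibody peak (fold 4.55, −log10 q 1.31). Nfya/Oard1, whose first gene encodes a subunit of the CCAAT-binding factor NF-Y, had 4.25, 6.23, 7.21 and 6.51.

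Several named pairs were present in only part of the MEF lists. Fbxl13/Armc10 had a peak in KO (fold 7.35, −log10 q 10.4, chr5:21645784-21646249) and in shDdx5 (fold 7.82, −log10 q 14.3, chr5:21645741-21646352), and none in WT, shControl or without antibody. It had the highest −log10 q among pairs of both kinds, in KO and not WT and in shDdx5 and not shControl, which the rule selected for. Casc1/Etfrf1 had a fold of 6.53 in KO, 3.75 in shControl and 5.4 in shDdx5, and no peak in WT. Cep57/Fam76b (Cep57 is a centrosomal protein) had 4.27 in WT, 5.41 in KO and 6.35 in shDdx5, and none in shControl. The promoter that Mcm8 shares with Trmt6, a subunit of the tRNA m1A methyltransferase, had a peak in KO (fold 3.31, −log10 q 0.682, summit 491 bp to the right of the middle) and in shDdx5 (fold 4.31, −log10 q 2.54), and none in WT or shControl. The KO value does not reach a q of 0.05. The promoter of Ddx5 and Cep95 had a peak in KO (3.94), shControl (4.02) and shDdx5 (3.69), with a −log10 q of 2.30, 2.23 and 2.29, and none in WT.

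The remaining mouse pairs of the fixed list were as follows. Mcm4/Prkdc, a replicative helicase subunit and the DNA-PK catalytic subunit, had folds of 5.15 (WT), 6.45 (KO), 4.32 (shControl) and 6.02 (shDdx5). Atm/Npat, the double-strand break kinase and a coactivator of histone genes, had 4.39, 5.07, 5.05 and 4.71. Plag1/Chchd7, a zinc finger factor and a mitochondrial protein, had 4.17, 6.03, 6.01 and 6.66. Mrps12/Sars2, both mitochondrial translation genes, had a peak in KO alone (fold 3.73, −log10 q 1.67). These pairs had no peak without antibody.

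**Figure D5:**
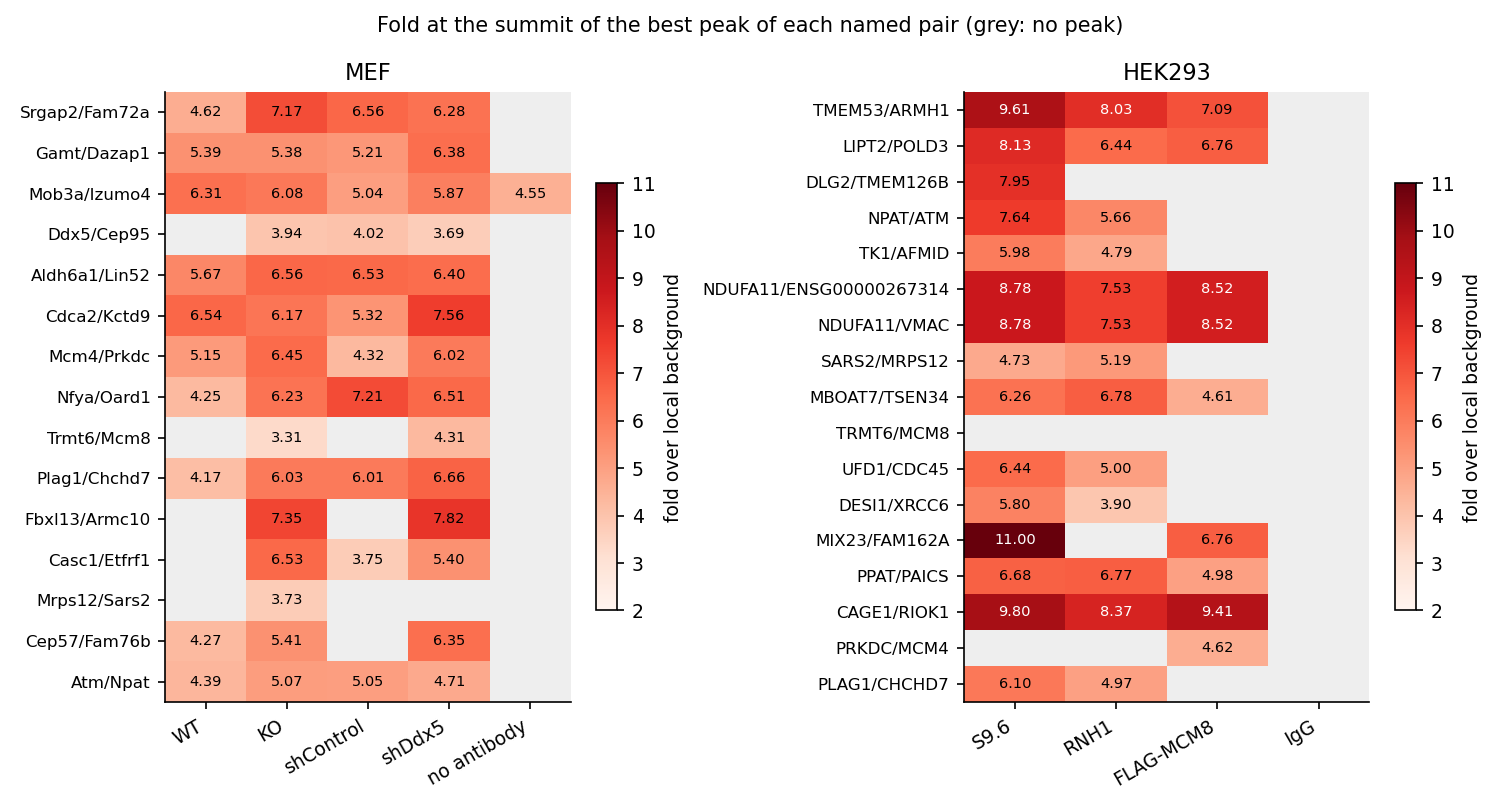
Fold over local background at the summit of the best peak (colour and number) for each named pair (rows) in each list (columns), MEF on the left and HEK293 on the right, with grey where the list had no peak. Fbxl13/Armc10 is filled in KO (7.35) and shDdx5 (7.82) only, and no named pair has an IgG peak.

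In HEK293, NDUFA11, a complex I subunit, lay opposite VMAC and a second gene listed by its identifier, so 1 peak served 2 pairs. It had a fold of 8.78 in S9.6 (−log10 q 59.5, chr19:5903903-5904889), 7.53 in RNH1 (49.4) and 8.52 in FLAG-MCM8 (19.2), and none in IgG. Its −log10 q was the highest among members in each of these 3 lists. TMEM53/ARMH1 had 9.61, 8.03 and 7.09, and CAGE1/RIOK1 (RIOK1 is a kinase of small ribosomal subunit maturation) 9.80, 8.37 and 9.41 in the same order. MBOAT7/TSEN34, a phosphatidylinositol acyltransferase and a tRNA splicing subunit, had 6.26, 6.78 and 4.61. PPAT/PAICS, both enzymes of purine synthesis, had 6.68, 6.77 and 4.98. LIPT2/POLD3, the latter a subunit of DNA polymerase delta, had 8.13, 6.44 and 6.76.

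A further 6 named human pairs had a peak in S9.6 and RNH1 and none in FLAG-MCM8. NPAT/ATM had a fold of 7.64 in S9.6 and 5.66 in RNH1, UFD1/CDC45 6.44 and 5.00, DESI1/XRCC6 5.80 and 3.90, TK1/AFMID 5.98 and 4.79, SARS2/MRPS12 4.73 and 5.19, and PLAG1/CHCHD7 6.10 and 4.97. The strongest S9.6 peaks at pairs without an RNH1 peak were at MIX23/FAM162A (fold 11.0, −log10 q 31.0, with a FLAG-MCM8 peak of 6.76) and DLG2/TMEM126B (7.95, −log10 q 19.2). PRKDC/MCM4 had a FLAG-MCM8 peak alone (4.62), and TRMT6/MCM8 had no peak in any HEK293 list, whose FLAG-MCM8 cells carried MCM8 on a plasmid.

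Gene groups, matched by symbol, were set beside all pairs, and for most groups and lists the interval held the share of all pairs. RNA processing pairs (44 in mouse) had a peak in 14 (WT), 22 (KO), 19 (shControl) and 27 (shDdx5) cases (31.8%, 50%, 43.2% and 61.4%), against 24.8%, 36.7%, 28.8% and 48.1% of all pairs. Repair and replication pairs (34) had 8, 18, 12 and 17, ubiquitin and proteasome pairs (26) 9, 15, 10 and 17, and mitochondrial pairs (48) 10, 19, 15 and 21. Translation and ribosome pairs (22) had 4, 7, 5 and 7, and zinc finger pairs (22) 4, 8, 4 and 10. The 15 chaperone pairs had 7, 8, 5 and 7, and the 12 cell cycle pairs 2, 3, 4 and 5. Histone pairs had 0 of 14 in WT, KO and shControl (upper bound 21.5%), and 2 of 14 in shDdx5 and without antibody. Outside the pairs, 74 histone genes had a peak in 1.35% (WT), 4.05% (KO), 5.41% (shControl) and 10.8% (shDdx5). For 147 RNA processing genes outside the pairs the shares were 17.7%, 19.7%, 19.7% and 36.1%. Over all other genes they were 8.11%, 11.9%, 10.5% and 17.8%. Both groups thus leaned the same way outside the pairs, with histone intervals holding these shares in shControl and shDdx5. Over 63 combinations of a group with an S9.6 or FLAG-MCM8 list, the interval lay above the share of all pairs in 4 (RNA processing in shControl and RNH1, ubiquitin and proteasome in KO, translation and ribosome in S9.6) and below it in 5 (histone in WT, KO, shControl, shDdx5 and RNH1), with no adjustment for their number. Genes of these groups outside the pairs were on the same side of all other genes. In KO, 18.7% of ubiquitin and proteasome genes had a peak (all other genes 11.9%). Translation and ribosome genes had 35.4% in S9.6 (21%). In RNH1, RNA processing genes had 33.5% and histone genes 10.3% (16.6%). In HEK293 S9.6, 20 of 27 translation and ribosome pairs had a peak (74.1%, 55.3 to 86.8), against 48.6% of all pairs, and in RNH1 10 of 27 (37.0%, 21.5 to 55.8). Repair and replication pairs had a peak in 22 of 37 in S9.6, 19 in RNH1 and 9 in FLAG-MCM8, mitochondrial pairs in 21 of 53, 17 and 5, RNA processing pairs in 25 of 43, 24 and 10, and histone pairs in 4 of 15, 2 and 3. Over all human pairs the shares were 48.6%, 38.8% and 15.7%, and the RNH1 and FLAG-MCM8 shares were 51.4% and 24.3% for repair and replication, 32.1% and 9.43% for mitochondrial and 55.8% and 23.3% for RNA processing pairs.

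By symbol, 280 pairs were divergent in both annotations. Of these, 53 had a peak in every S9.6 MEF list and 105 in both S9.6 and RNH1 in HEK293, with 32 in both sets. No peak in any of these lists was found at 49 pairs. The cell types differ in origin as well as species, and thresholds differed between the lists, so these counts are given as description.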

How the data were processed

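CUT&Tag libraries from MEFs (5) and HEK293 (4) were used, 1 list per library and 1 library per group, grouped by their labels. The authors trimmed reads (Trimmomatic), aligned them with bowtie2 to mm10 or hg38 and called peaks with MACS2. The submitters' processing notes give MACS2 2.1.2, while the study's methods name another release. The no-antibody library was not used as input in MEFs, and whether IgG was used in HEK293, the calling threshold and duplicate removal are not given in the sources used here. The deposited lists give a fold at the summit over the local background (a ratio), the −log10 p, the −log10 q and the summit offset. Deposited HEK293 peaks had a p of up to 1.00e-05, and whether this limit came from calling or from later filtering was not tested. Lower thresholds and deeper libraries give more peaks, so counts were compared only within a cell type and against other promoters of the same list. Read totals were not used here. Pileups were solved from fold and p for peaks with a −log10 p under 250.

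Any peak outside the autosomes and sex chromosomes was dropped, which removed 0 peaks in MEFs and 6 to 9 in each HEK293 list. A promoter peak had its midpoint within 1000 bp of a protein-coding gene 5′ end (GENCODE M21 or 44), which is the outermost annotated start. Pairs whose 5′ ends overlap (446 in mouse, 509 in human) counted as other. Shares have 95% Wilson intervals, differences Newcombe intervals and count ratios Poisson intervals on the log scale. Overlap meant at least 1 bp. CpG ratios were taken over 1000 bp and GC skew over 500 bp. Alternatives changed the window, the point of the peak, the pair definition, thresholds, control peaks, histone genes and CpG content. The code was tested on simulated data. Members, gene lists, motifs and alternatives were chosen with earlier results of these data known. Named pairs were a fixed list of 30 pairs (6 passed the rule in mouse and 10 in human), the 2 members with the highest −log10 q of each S9.6 or FLAG-MCM8 list, the 4 pairs with the highest mean rank over all 4 S9.6 MEF lists without a no-antibody peak or over FLAG-MCM8, S9.6 and RNH1 without an IgG peak, and the 2 strongest pairs in KO and not WT, in shDdx5 and not shControl, and in S9.6 and not RNH1. Tools were Python 3.11.15 with pandas 2.3.3, numpy 2.4.6, matplotlib 3.10.9 and scipy 1.17.1.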

Additional observations from a re-analysis of the deposited data

Results flagged for a closer look

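In 3 measures at divergent promoters, the change from WT to KO and the change from shControl to shDdx5 had opposite signs, with 1 library each and no test of the difference. Members as a share of all peaks were 2.85% in WT and in KO (change -0.00182 points) and 1.76% and 3.06% in shControl and shDdx5 (change 1.30), a difference of -1.30 between the changes. The change in KO is near 0 and within the counting intervals, so its sign carries no direction. Peaks at other promoters went from 24.1% to 23.8% in KO and from 16.5% to 29.4% in shDdx5. Members as a share of protein-coding promoter peaks changed by 0.0889 points in KO and by -0.208 points in shDdx5. The difference of 0.297 is within the counting intervals of these shares. The median width changed by -6.0 bp in KO (439 to 433 bp) and by 145 bp in shDdx5 (399 to 544 bp), a difference of -151 bp. At other promoters it went from 380 to 376 bp and from 339 to 452 bp, so the same signs were seen there.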

How the results depend on the processing

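Of 84 alternative values of the occupancy difference, 77 kept their direction and their side of 0, as did 83 of 92 values of the sharing difference. The exceptions for occupancy were all in control lists. Some values that kept their side of 0 still fell by 1.5 times or more. At a fold of at least 4 the difference was 8.99 points in WT, 14.9 in KO, 10.7 in shControl, 20.2 in shDdx5 and 0.354 without antibody. At a CpG ratio of at least 0.6 it was 11.1 in WT, 11.5 in shControl and 18.3 in shDdx5. Sharing fell likewise at a q of 0.05 for KO with WT (8.64) and WT with KO (10.3), at that CpG ratio for shControl with shDdx5 (9.93), at 50% reciprocal overlap for RNH1 with S9.6 (7.67), and in the strongest 25% of a list for WT with KO (12.8) and shControl with shDdx5 (7.92). Without antibody the difference was 0.414 points for pairs at most 300 bp apart, 0.446 with overlapping pairs counted as divergent, 0.0495 at a q of 0.05, 0.510 without histone genes and 0.512 at a CpG ratio of at least 0.6, and each interval held 0. In IgG it was 0.792 for pairs at most 300 bp apart and 0.705 with overlapping pairs. The sharing difference lost its side of 0 at a fold of at least 4 for KO with WT (4.24) and WT with KO (8.33), at 50% reciprocal overlap for FLAG-MCM8 with S9.6 (7.39) and S9.6 with FLAG-MCM8 (2.45), for pairs at most 300 bp apart in S9.6 with FLAG-MCM8 (2.61), and in the strongest 25% of a list, chosen after seeing the data, for KO with WT (4.0), S9.6 with FLAG-MCM8 (5.90), S9.6 with RNH1 (2.11) and RNH1 with S9.6 (2.88). Count ratios against other promoters crossed 1, with intervals that held 1, in KO and WT (0.972 with overlapping pairs, 0.952 at a q of 0.05), shDdx5 and shControl (1.01 for pairs at most 300 bp apart) and RNH1 and S9.6 (0.998 at a fold of at least 4, 0.973 with the same number of strongest peaks). FLAG-MCM8 and IgG gave 1.79 with overlapping pairs and 1.56 without histone genes, with intervals above 1. Their ratio fell to 1.12 (0.710 to 1.77) among promoters whose CpG ratio reached 0.6. It also fell to 1.24 (0.774 to 1.98) for midpoints within 500 bp. Peaks whose fold reached 4 gave 1.31 (0.790 to 2.17). The remaining settings gave 1.53 to 1.61, again with intervals that held 1. Fewer peaks or pairs enter the stricter settings, and other causes were not tested. Leaving out a replicate was not possible with 1 library per group.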
